A study of Mus musculus with 20 samples.

Results

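A set of 9 endothelial and angiogenesis genes was followed across all groups of a mouse muscle study. They are the vascular endothelial growth factor (VEGF) receptor genes Kdr and Flt1, the angiopoietin genes Angpt1 and Angpt2 with their receptor gene Tek, the endothelial nitric oxide synthase gene Nos3, and the cell junction genes Pecam1, Cdh5 and Esam. They were chosen by gene symbol, with earlier results of these data known. All 9 of 9 were found among the 21844 genes of the deposited count table.

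RNA was sequenced from hindlimb muscle of Cre+:iMSBmal1 fl/fl mice, in which the clock gene Bmal1 is floxed and a Cre recombinase is present in every group, controls included. Per the labels, the muscle-specific knockout is named iMSBmal1KO and its control received vehicle. Mice had either no exercise or exercise training, which was daily on a treadmill for 6 weeks. This gives 4 groups of 5 libraries, named here vehicle sedentary, knockout-labelled sedentary, vehicle trained and knockout-labelled trained. The labels disagree on the tissue, with gastrocnemius in 1 field and Tibialis Anterior in another, and on the collection time, with 48 hours after in the sample labels and 47 hours after the last bout in the series design. They give no age or sex, and do not name the agent that induced the knockout or the promoter that drives the Cre. A deletion driven in muscle fibres would leave the gene intact in endothelial cells, but which cells recombined was not measured here.

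The library totals lay between 10610333 and 19153527 estimated counts. Knockout-labelled trained libraries 1 and 4, and 3 and 5, were near-identical. At 1000 to 10000 counts they differed by 2.38 and 1.76 times the variance of sampling alone. Every other pair of libraries had at least 6.38 times. Each near-identical pair was counted as 1 sample, so that group has n = 3. Vehicle trained library 2 stood apart from its group, where 3689 of 14359 tested genes lay over 2-fold away from its 4 group mates' mean of log2(CPM + 1), against at most 476 in any of the other 17 samples. It was kept, and differences of the 9 genes that rest on it are given with and without it. The targeted gene, listed as Arntl, was not lower in gene-level counts under the knockout label. Such counts do not resolve single exons, so they cannot show whether the floxed part was deleted. Its median CPM (counts scaled to the library total) was 6.53 among vehicle and 11.6 among knockout-labelled sedentary samples, and 6.40 and 8.72 among the corresponding trained samples. The ranges were 5.68 to 7.93 and 10.96 to 18.9 CPM in sedentary muscle. In trained muscle they were 6.32 to 132 and 8.04 to 16.1 CPM. Vehicle trained library 2 had the 132 CPM of Arntl, and the rest of its group had 6.32 to 6.68 CPM. Directions are therefore given from the labels. The tissue label was checked against muscle fibre markers: the 10 markers listed summed to between 60480 CPM, in vehicle trained library 2, and 98760 CPM. All of the 20 other endothelial markers listed were also above the detection filter. Nothing in the labels says that the libraries of a group came from separate animals, so p-values measure only the spread between these samples.

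Endothelial cells line the capillaries that run between muscle fibres. VEGF acts on them chiefly through the tyrosine kinase receptor encoded by Kdr (VEGFR2), while the product of Flt1 (VEGFR1) binds the same ligand tightly with weak signalling and can act as a decoy. Angiopoietin 1, from cells around the vessel, activates the Tie2 receptor encoded by Tek and keeps vessels stable, while angiopoietin 2, released by the endothelium itself, often opposes it during remodelling. Growth of new capillaries is a known response of muscle to endurance training.

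RefSeq promoter sequence of build GRCm38.p6 was given for 3 of the 9 genes, the receptors Kdr, Flt1 and Tek. The 250 bases before each gene's start are shown because BMAL1 binds E-boxes, and because ETS family factors, which recognise the core letters GGAA, drive many endothelial genes. Each is written 5′ to 3′ on the gene's strand, and capitals mark GGAA or its reverse complement TTCC. The Kdr sequence is chr5:75978456-75978705 (minus strand), the Flt1 sequence is chr5:147726012-147726261 (minus strand) and the Tek sequence is chr4:94739039-94739288 (plus strand).
Kdr: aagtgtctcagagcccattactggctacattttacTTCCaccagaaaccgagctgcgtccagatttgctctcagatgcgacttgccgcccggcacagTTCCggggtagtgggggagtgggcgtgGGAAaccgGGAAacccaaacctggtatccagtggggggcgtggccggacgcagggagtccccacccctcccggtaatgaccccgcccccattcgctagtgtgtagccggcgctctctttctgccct
Flt1: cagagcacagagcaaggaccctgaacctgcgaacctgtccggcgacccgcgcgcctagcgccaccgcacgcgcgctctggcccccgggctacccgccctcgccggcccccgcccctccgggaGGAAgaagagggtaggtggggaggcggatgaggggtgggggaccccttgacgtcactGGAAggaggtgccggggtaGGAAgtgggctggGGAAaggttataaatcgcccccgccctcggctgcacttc
Tek: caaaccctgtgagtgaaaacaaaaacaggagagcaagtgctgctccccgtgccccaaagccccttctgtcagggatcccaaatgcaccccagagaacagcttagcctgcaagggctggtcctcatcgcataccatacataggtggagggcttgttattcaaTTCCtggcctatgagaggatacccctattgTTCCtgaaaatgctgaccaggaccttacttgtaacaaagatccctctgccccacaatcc
None of the 3 windows held the E-box CACGTG, searched on both strands, which was present in 6.0% of 32851 RefSeq promoters cut to the same length. The ETS core, a motif chosen with results in view, matched at 4 places in Kdr, 4 in Flt1 and 2 in Tek. At least 1 match was found in 93.4% of all promoters, and their median was 3 matches. The GC content was 61.6% in Kdr, 70.4% in Flt1 and 51.2% in Tek, against a median of 52.4% over all promoters. These matches are descriptions of the letters in these windows.

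All 9 genes passed the detection filter. Per kilobase of exon, the mean level over the 18 samples was highest for Cdh5 at 13.8 ± 2.56 CPM per kb (SD). It was 8.65 ± 1.601 for Pecam1, 6.70 ± 1.08 for Esam, 5.19 ± 0.865 for Flt1, 5.05 ± 1.09 for Tek, 3.66 ± 0.884 for Kdr, 3.61 ± 1.02 for Angpt1, 1.96 ± 0.412 for Nos3 and 0.631 ± 0.194 CPM per kb for Angpt2. Per kilobase, the order from Cdh5 to Pecam1, Esam and Flt1 held in 18 of 18 samples at each step, as did Nos3 above Angpt2. Flt1 and Tek did not differ beyond their spread, with Flt1 higher in 11 of 18 samples, nor did Kdr and Angpt1, with Kdr higher in 10 of 18. Tek was above Kdr in 16 and Angpt1 above Nos3 in 17 of 18. The angiopoietin 2 transcript was thus the least abundant of the set, and it was also lowest by mean plain CPM. The order of the other genes depends on the exon length, which merges all annotated exons of a gene. That length was 13504 bases for Flt1 and 4203 bases for Cdh5. By plain CPM the mean over the 18 samples was highest for Flt1, at 70.11 against 57.94 CPM for Cdh5. The divisor is the same in every sample, so agreement between samples does not test it.

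Some of these levels are also uncertain because the labels do not say whether counting used strand. In the GENCODE M21 annotation, Angpt2 lies wholly inside the body of Mcph1 on the opposite strand, although no exon bases are shared. Mcph1 was measured at a mean of 3.79 CPM, above the 2.33 CPM of Angpt2. Nos3 shares 25.2% of its exon bases with the antisense gene Gm15587 and 7.12% with Atg9b, and Angpt1 shares 14.2% with the antisense gene Gm17473. Each of these 3 partners had a mean below 0.3 CPM.

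**Figure D1:**
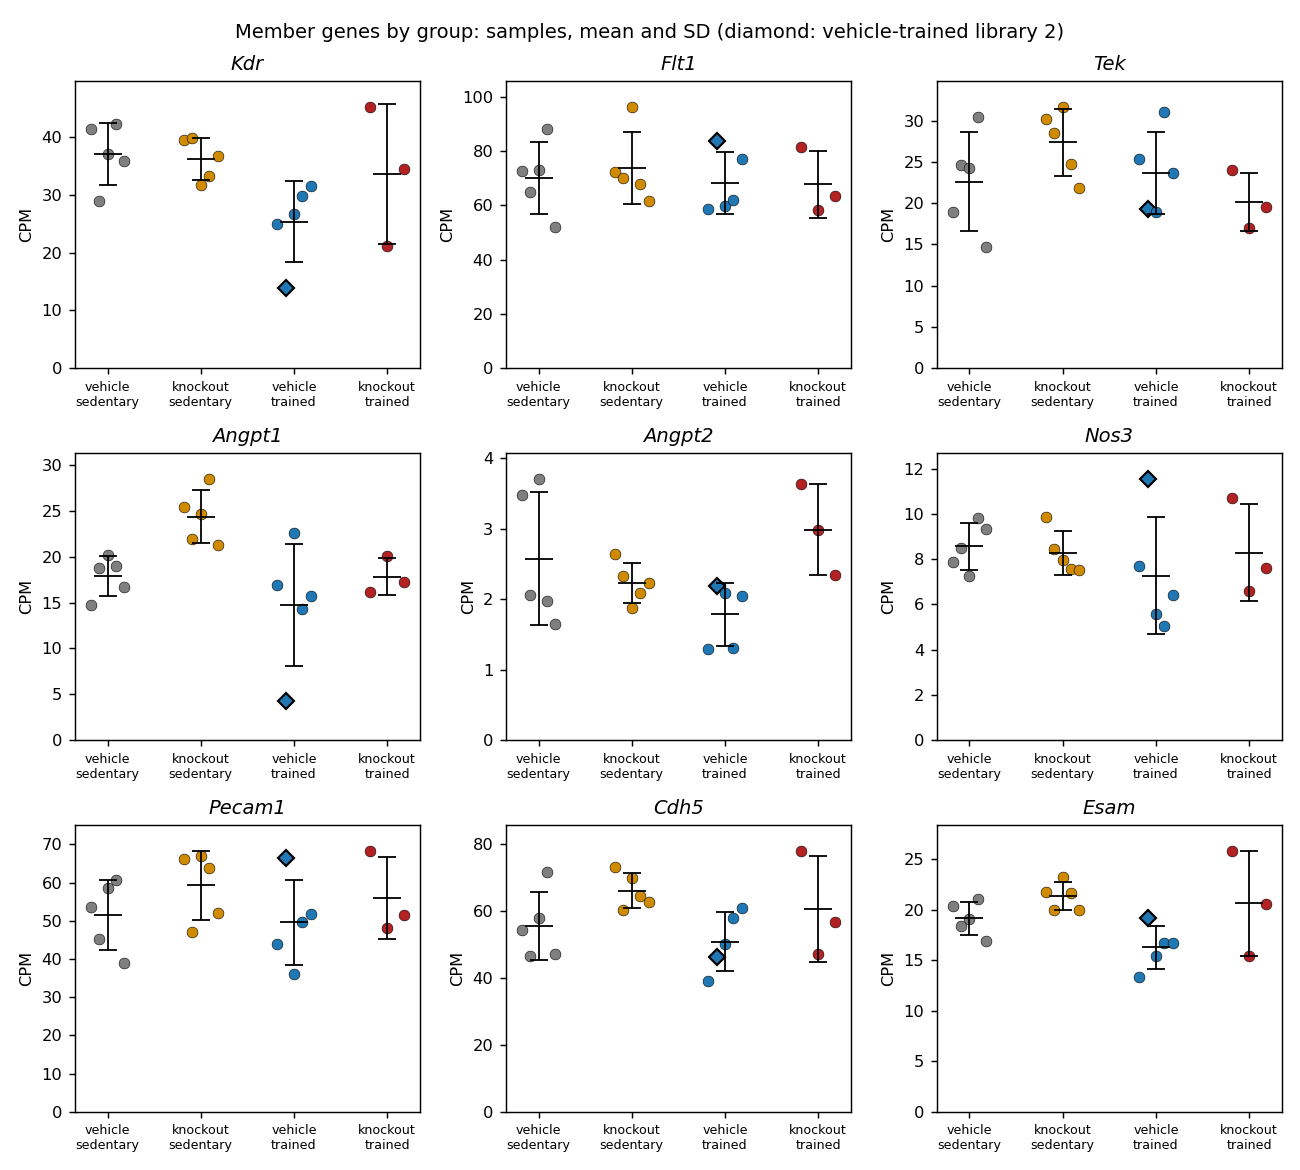
CPM of the 9 genes (vertical axes, each from 0) in vehicle sedentary, knockout-labelled sedentary, vehicle trained and knockout-labelled trained samples, with near-identical libraries averaged. Points are samples, bars are the mean and SD, and the diamond is vehicle trained library 2, which has the lowest Kdr (13.8 CPM) and Angpt1 (4.23 CPM) and the highest Nos3 (11.6 CPM).

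Across the 5 contrasts fitted (the knockout label in sedentary and in trained muscle, training in vehicle and in knockout-labelled muscle, and the interaction), none of the 9 genes passed an adjusted p of 0.05 (edgeR quasi-likelihood test, Benjamini-Hochberg adjustment over 14359 genes). The smallest adjusted p of a member was 0.781, 0.175, 0.275, 0.587 and 0.647 in the same order. Over all tested genes, 2.33% passed for the knockout label in sedentary muscle, 3.29% for the knockout label in trained muscle, and 0.0% in each of the other 3 contrasts. At an unadjusted p under 0.05, the members numbered 0, 2, 1, 0 and 1 of 9, where 9.81%, 17.2%, 15.2%, 9.71% and 7.49% of all genes had such a p. DESeq2 on the same samples gave all 9 an adjusted p for the knockout label and called 0 in sedentary and 0 in trained muscle (3.74% and 6.32% of all genes), with 0 and 3 at an unadjusted p under 0.05 (10.5% and 17.8% of all genes). For training it called 0 of the 3 members with an adjusted p in vehicle muscle, 0 of 8 in knockout-labelled muscle, and 0 of 3 for the interaction (0.0%, 1.2% and 0.202% of all genes), with 1, 0 and 1 of 9 at an unadjusted p under 0.05 (15.8%, 10.5% and 8.31% of all genes). A p that misses the threshold does not show that values are equal. The 95% intervals of the fold change reached from 0.579 to 1.92 over the 9 genes for the knockout label in sedentary muscle and from 0.683 to 2.57 in trained muscle. For training they reached from 0.498 to 1.35 in vehicle and from 0.520 to 2.21 in knockout-labelled muscle.

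The VEGF receptor genes are taken first. Kdr, the main signalling receptor, was measured at 41.5, 28.9, 37.2, 42.3 and 36.0 CPM in vehicle sedentary libraries 1 to 5, and at 39.5, 39.9, 31.8, 33.3 and 36.8 CPM in knockout-labelled sedentary libraries. In vehicle trained libraries 1 to 5 it was 24.95, 13.8, 26.6, 29.9 and 31.6 CPM. In knockout-labelled trained samples it was 45.2 CPM (libraries 1 and 4), 21.2 CPM (library 2) and 34.5 CPM (libraries 3 and 5). The vehicle trained values lay low, 3 of 5 below every vehicle sedentary value, while the knockout-labelled trained samples held the highest and the second lowest value of the study. The means were 37.2 ± 5.35 CPM (SD, n = 5) in vehicle sedentary, 36.3 ± 3.63 (n = 5) in knockout-labelled sedentary, 25.4 ± 6.98 (n = 5) in vehicle trained and 33.65 ± 12.1 CPM (n = 3) in knockout-labelled trained muscle.

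In vehicle muscle the log2 change of Kdr with training was -0.51 (SE 0.188, 95% interval -0.91 to -0.12, unadjusted p = 0.0138, edgeR adjusted p = 0.275). Without library 2 it was -0.36 (SE 0.150, unadjusted p = 0.0260, edgeR adjusted p = 0.363), with a group mean of 28.3 ± 3.02 CPM (SD, n = 4). The direction was the same without any single sample, from -0.60 to -0.36. In knockout-labelled muscle the log2 difference with training was 0.02 (SE 0.216), and its sign turned when single samples were left out and on the log2(CPM + 1) scale. The interaction, which tests the difference between these 2 training effects, was 0.54 (SE 0.285, unadjusted p = 0.0751, edgeR adjusted p = 0.682). Between the trained groups, Kdr differed by 0.45 log2 with the knockout-labelled samples higher (SE 0.214, edgeR adjusted p = 0.294), and by 0.26 without the sample of libraries 1 and 4, by 0.68 without library 2 of the same group and by 0.39 without libraries 3 and 5. Leaving out 1 sample of the knockout-labelled trained group thus moved this difference by more than 1.5 times. The training comparison in vehicle muscle and the comparison of the trained groups share the vehicle trained samples.

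Flt1, the decoy-type receptor, differed little between the group means. It was measured at 72.5, 64.9, 72.9, 88.2 and 51.8 CPM in vehicle sedentary libraries, at 72.2, 70.2, 96.1, 67.8 and 61.5 CPM in knockout-labelled sedentary libraries and at 58.5, 83.6, 59.9, 62.1 and 76.9 CPM in vehicle trained libraries. Flt1 in knockout-labelled trained samples stood at 81.5 CPM (libraries 1 and 4), 58.2 CPM (library 2) and 63.2 CPM (libraries 3 and 5). All 4 groups overlapped, with means of 70.1 ± 13.3, 73.6 ± 13.2, 68.2 ± 11.3 (SD, n = 5 each) and 67.7 ± 12.3 CPM (SD, n = 3). The 4 pairwise log2 differences were all 0.02, with standard errors from 0.149 to 0.172, and none kept its sign under all alternatives. Their 95% intervals reached from -0.35 to 0.38.

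Flt1 and Kdr parted in 1 library. The ratio of Flt1 CPM to Kdr CPM was 6.05 in vehicle trained library 2 and between 1.44 and 3.03 in the other 17 samples. That library had the lowest Kdr and the third highest Flt1 of the 18 samples. The scatter of Flt1 against Kdr shows this library alone at the upper left.

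**Figure D2:**
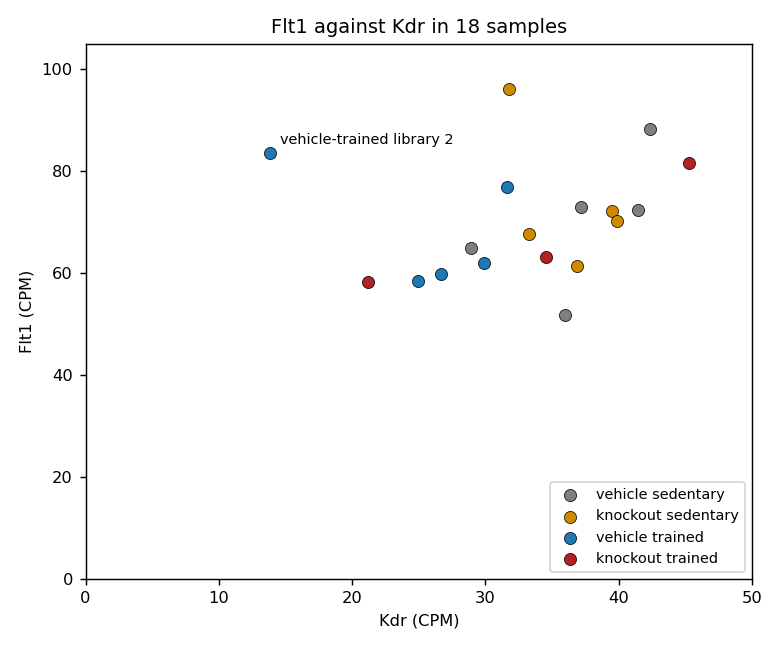
Flt1 (vertical axis, CPM) against Kdr (horizontal axis, CPM) in the 18 samples, coloured by group. Vehicle trained library 2 lies at 13.8 CPM of Kdr and 83.6 CPM of Flt1, while the other 17 samples have Kdr between 21.2 and 45.2 CPM.

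Other genes of the VEGF system were taken as a list of 8 ligands, co-receptors and related receptors. All 8 were tested, and 0 of 8 passed the threshold in any contrast. The median log2 difference of the list was 0.09 and 0.17 for the knockout label in sedentary and trained muscle, against 0.01 and -0.03 over all genes. It was 0.05 and -0.03 for training in vehicle and knockout-labelled muscle, against 0.03 and -0.02. Leaving out vehicle trained library 2, the median in trained muscle was 0.08, and the one for training in vehicle muscle turned to -0.03, with 3 of 8 genes above 0 in place of 5 of 8. The smallest p values belonged to Vegfd, a lymphatic growth factor gene, with a log2 difference of 1.67 (SE 0.467) for training in vehicle muscle (edgeR adjusted p = 0.272), and to Vegfb, a ligand of the Flt1 product, with 0.57 (SE 0.168) for the knockout label in trained muscle (edgeR adjusted p = 0.0735). Vegfd stood at 51.9 CPM in vehicle trained library 2 and between 6.15 and 10.02 CPM in the other 4 libraries of that group, and without it the difference was 0.57 (SE 0.156, edgeR adjusted p = 0.343). Without library 2, Vegfb passed the threshold in knockout-labelled against vehicle trained muscle with a log2 difference of 0.45 (edgeR adjusted p = 0.0288), and with training in knockout-labelled muscle with 0.59 (edgeR adjusted p = 0.0341). It was the 1 of 8 to pass in each, where 8.66% and 0.843% of all genes passed. Its level was 75.72, 76.99 and 76.90 CPM in the 3 knockout-labelled trained samples and at most 61.2 CPM in knockout-labelled sedentary ones, while vehicle trained library 1 reached 78.1 CPM. Vegfa, the main ligand of the Kdr product and named here after its values were seen, had means of 400 ± 43.7 CPM in sedentary and 283 ± 102 CPM in trained vehicle libraries (SD, n = 5 each), a log2 difference of -0.46 (SE 0.239, edgeR adjusted p = 0.353). Library 2 held 112 CPM of it, and without that library the difference was -0.26 (SE 0.165, edgeR adjusted p = 0.482).

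The angiopoietin genes gave the members' only values that did not overlap between groups when all samples were kept. Angpt1, the stabilising ligand, was measured at 14.7, 18.8, 20.2, 19.0 and 16.7 CPM in vehicle sedentary libraries and at 25.5, 21.9, 24.7, 28.5 and 21.3 CPM in knockout-labelled sedentary libraries. In vehicle trained libraries it was 16.9, 4.23, 22.6, 14.3 and 15.7 CPM, and in knockout-labelled trained samples it was 16.2 CPM (libraries 1 and 4), 20.1 CPM (library 2) and 17.2 CPM (libraries 3 and 5). All 5 knockout-labelled sedentary values lay above all vehicle sedentary and all knockout-labelled trained values, and library 2 of the vehicle trained group was far below every other sample. Angpt1 was 1 of 9 members whose values did not overlap for the knockout label in sedentary muscle, where 9.4% of all genes did not overlap. It was also the 1 of 9 for training in knockout-labelled muscle, where 11.9% of all genes did not overlap. Those 2 comparisons share the knockout-labelled sedentary samples.

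Without training, the mean of Angpt1 was 17.9 ± 2.18 CPM under vehicle and 24.4 ± 2.90 CPM under the knockout label (SD, n = 5 each). The log2 difference was 0.39 (SE 0.262, 95% interval -0.16 to 0.94, unadjusted p = 0.152, edgeR adjusted p = 0.788) with the spread shared by all 4 groups. The spread of Angpt1 in that fit includes vehicle trained library 2, although neither sedentary group holds it. Without it the difference was 0.39 with SE 0.137 (unadjusted p = 0.00983, edgeR adjusted p = 0.104). With only the 2 sedentary groups in the fit it was 0.39 with SE 0.0991 (edgeR adjusted p = 0.0249), past the threshold as 1 of 9 members, where 8.2% of all genes passed. The size of the difference was thus stable, from 0.33 to 0.44 without any single sample, and its call was not. In trained muscle the log2 difference of Angpt1 for the knockout label was 0.32 (SE 0.301) and 0.09 without library 2 (SE 0.165), and training in knockout-labelled muscle gave -0.30 (SE 0.304, edgeR adjusted p = 0.884).

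Angpt2, the antagonistic ligand, was low throughout. It was measured at 3.48, 2.06, 3.71, 1.97 and 1.65 CPM in vehicle sedentary libraries and at 2.64, 2.33, 1.88, 2.09 and 2.24 CPM in knockout-labelled sedentary libraries. Vehicle trained libraries had 1.29, 2.18, 2.09, 1.31 and 2.05 CPM, and knockout-labelled trained samples had 3.64 CPM (libraries 1 and 4), 2.98 CPM (library 2) and 2.34 CPM (libraries 3 and 5). Every knockout-labelled trained sample lay above every vehicle trained library, although the near-identical libraries 1 and 4 read 2.85 and 4.43 CPM and libraries 3 and 5 read 1.85 and 2.84 CPM. Taken singly, library 3 therefore fell among the vehicle trained values. Angpt2 was 1 of 9 members whose values did not overlap for the knockout label in trained muscle, where 7.95% of all genes did not overlap (14.5% without library 2, with Angpt2 again the 1 of 9).

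The means of Angpt2 in trained muscle were 1.79 ± 0.444 CPM (SD, n = 5) in vehicle and 2.99 ± 0.649 CPM (SD, n = 3) in knockout-labelled samples. The log2 difference was 0.76 (SE 0.288, 95% interval 0.15 to 1.36, unadjusted p = 0.0170, edgeR adjusted p = 0.178), and 0.87 without library 2 (SE 0.294, edgeR adjusted p = 0.0775). In sedentary muscle the same comparison gave -0.25 (SE 0.255, edgeR adjusted p = 0.938). The interaction of knockout label and training was 1.01 (SE 0.385, unadjusted p = 0.0173, edgeR adjusted p = 0.647), and lay between 0.84 and 1.13 without any single sample. Training differences were -0.47 (SE 0.257) in vehicle and 0.54 (SE 0.286) in knockout-labelled muscle. None of these passed the threshold.

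Tek, the gene of the shared Tie2 receptor, had values that overlapped in every comparison. It was measured at 18.9, 24.6, 24.3, 30.4 and 14.7 CPM in vehicle sedentary, at 30.2, 28.4, 31.6, 24.8 and 21.8 CPM in knockout-labelled sedentary and at 25.3, 19.3, 18.9, 31.0 and 23.6 CPM in vehicle trained libraries. The knockout-labelled trained samples had 24.0, 16.97 and 19.5 CPM. The highest group mean was 27.4 ± 4.03 CPM (SD, n = 5) in knockout-labelled sedentary and the lowest was 20.2 ± 3.55 CPM (SD, n = 3) in knockout-labelled trained muscle. The log2 difference for the knockout label was 0.23 (SE 0.152) in sedentary and -0.18 (SE 0.176) in trained muscle, and the interaction was -0.41 (SE 0.233, unadjusted p = 0.0941, edgeR adjusted p = 0.695). Across the 18 samples Spearman's rho of Tek was 0.315 with Angpt1 and -0.354 with Angpt2, which are descriptions over samples that share groups and library depth.

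The ratio of Angpt2 CPM to Angpt1 CPM was 0.516 in vehicle trained library 2 and between 0.0732 and 0.237 in the other 17 samples. In that library the ratio rested on the low Angpt1, since its Angpt2 ranked 9 of 18. In the knockout-labelled trained samples the ratio was 0.225, 0.148 and 0.136, and in the other 4 vehicle trained libraries it was 0.0766, 0.0927, 0.0913 and 0.130. The knockout-labelled trained ratios were above those 4, a comparison made after seeing the data and without library 2. No share over all genes was computed for ratios. Vehicle sedentary libraries 1 and 3 had ratios of 0.237 and 0.1835. Taken singly, knockout-labelled trained library 3 had 1.85 CPM of Angpt2 and 16.4 CPM of Angpt1. Vehicle trained library 5 had 2.05 and 15.7 CPM, and so the higher ratio of these 2 libraries.

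Of 3 other tested genes of the Tie system, 0 passed the threshold in any contrast. Svep1, which encodes an extracellular matrix protein, had a log2 difference of -0.97 (SE 0.281) for the knockout label in trained muscle (edgeR adjusted p = 0.0694), and -0.68 without library 2 (SE 0.215, edgeR adjusted p = 0.0548). Its values were 12.4, 18.7 and 14.5 CPM in knockout-labelled trained and 31.6, 49.7, 19.8, 33.6 and 18.1 CPM in vehicle trained samples, which overlap. Tie1, the orphan partner receptor of Tie2, had 0.43 (SE 0.164) in the same contrast (edgeR adjusted p = 0.181). The angiopoietin gene Angpt4 was on the list and did not pass the detection filter.

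Nos3 encodes the synthase that makes nitric oxide in endothelium and so relaxes vessels. It was measured at 7.89, 8.51, 7.26, 9.84 and 9.35 CPM in vehicle sedentary, at 9.86, 8.44, 7.99, 7.56 and 7.52 CPM in knockout-labelled sedentary and at 7.70, 11.6, 5.60, 5.07 and 6.41 CPM in vehicle trained libraries. The knockout-labelled trained samples had 10.7, 6.58 and 7.61 CPM. All groups overlapped, and library 2 of the vehicle trained group was the highest of the study, where the rest of its group included the 3 lowest values. The mean of that group was 7.27 ± 2.60 CPM (SD, n = 5) with and 6.19 ± 1.14 CPM (SD, n = 4) without library 2.

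With library 2 the log2 difference of Nos3 for training in vehicle muscle was -0.18 (SE 0.204, edgeR adjusted p = 0.647), and without it -0.44 (SE 0.150, unadjusted p = 0.00879, edgeR adjusted p = 0.358). For the knockout label in trained muscle it was 0.21 (SE 0.233, edgeR adjusted p = 0.672) with and 0.49 (SE 0.167, edgeR adjusted p = 0.0815) without that library. Both Nos3 differences thus moved by more than 1.5 times when 1 library was left out, without passing the threshold. In sedentary muscle the knockout-label difference was -0.11 (SE 0.203).

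Of 9 other tested genes of nitric oxide signalling, 2 rose with the knockout label in trained muscle and 0 fell, where 3.29% of all genes passed. In the other 4 contrasts 0 of the 9 passed. Nos2, the inducible synthase, rose by a log2 change of 1.38 (SE 0.325, edgeR adjusted p = 0.0247), from 0.719, 0.727, 2.34, 1.65 and 2.12 CPM in vehicle trained libraries to 4.69, 3.14 and 3.74 CPM. Ddah1, which degrades an endogenous inhibitor of the synthases, rose by 1.12 (SE 0.288, edgeR adjusted p = 0.0399), from 2.88, 0.925, 2.22, 1.77 and 3.11 CPM to 4.24, 4.97 and 4.49 CPM. The groups of both genes did not overlap, where 7.95% of all genes did not overlap. The knockout-labelled trained levels of 3.85 ± 0.781 and 4.57 ± 0.370 CPM (SD, n = 3) were near the vehicle sedentary means of 3.34 ± 0.645 and 4.22 ± 1.07 CPM (SD, n = 5), and it was the vehicle trained group that stood low, at 1.51 ± 0.760 and 2.18 ± 0.879 CPM (SD, n = 5). The training difference itself in vehicle muscle, -1.08 (SE 0.294) for Nos2 and -0.91 (SE 0.259) for Ddah1, had an edgeR adjusted p of 0.272 for both. With only the 2 trained groups in the fit the knockout-label calls were lost (edgeR adjusted p = 0.401 and 0.407). When single samples were left out, Nos2 lost its call in 3 of 18 fits and Ddah1 in 9 of 18, with edgeR adjusted p values of up to 0.106 and 0.154. One more gene of the list passed without vehicle trained library 2, where 8.66% of all genes passed. It was Nosip, whose product binds the endothelial synthase, with 0.39 (SE 0.0926, edgeR adjusted p = 0.0123). The median log2 difference of the 9 genes in that contrast was 0.31, against -0.03 over all genes.

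The junction genes form the last set. Pecam1, an adhesion receptor at endothelial contacts, was measured at 53.5, 45.2, 58.7, 60.8 and 39.0 CPM in vehicle sedentary, at 66.3, 47.0, 67.1, 63.9 and 52.0 CPM in knockout-labelled sedentary and at 44.0, 66.4, 36.0, 49.8 and 51.7 CPM in vehicle trained libraries. In knockout-labelled trained samples Pecam1 was at 68.4, 48.1 and 51.6 CPM. The groups overlapped in every comparison. Log2 differences lay between 0.00 and 0.21, with the largest for the knockout label in trained muscle (SE 0.182, edgeR adjusted p = 0.596), which was 0.37 without library 2 (SE 0.144, edgeR adjusted p = 0.126) and 0.11 without the knockout-labelled sample of libraries 1 and 4.

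Cdh5, which encodes the VE-cadherin of adherens junctions, was measured at 54.2, 46.6, 57.8, 71.7 and 47.2 CPM in vehicle sedentary, at 73.1, 60.2, 69.7, 64.4 and 62.7 CPM in knockout-labelled sedentary and at 38.9, 46.2, 50.1, 58.0 and 60.7 CPM in vehicle trained libraries. The knockout-labelled trained samples had 77.9, 47.0 and 56.7 CPM. In sedentary muscle 4 of 5 vehicle values lay below all 5 knockout-labelled values, and vehicle library 4 was among the highest. The log2 difference for the knockout label was 0.20 (SE 0.137, edgeR adjusted p = 0.801) in sedentary and 0.29 (SE 0.156, edgeR adjusted p = 0.363) in trained muscle, the latter 0.14 without libraries 1 and 4. For training it was -0.08 (SE 0.137) in vehicle and 0.01 (SE 0.157) in knockout-labelled muscle.

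Esam, an adhesion molecule of endothelial tight junctions, was measured at 20.3, 18.4, 19.1, 21.05 and 16.9 CPM in vehicle sedentary, at 21.8, 20.001, 23.2, 21.6 and 19.98 CPM in knockout-labelled sedentary and at 13.4, 19.16, 15.4, 16.7 and 16.7 CPM in vehicle trained libraries. In knockout-labelled trained samples Esam was at 25.8 CPM (libraries 1 and 4), 15.4 CPM (library 2) and 20.6 CPM (libraries 3 and 5). In the vehicle trained group 4 of 5 values were below all vehicle sedentary ones, the exception being library 2, and the knockout-labelled trained samples held both the highest value of the study and one of the lowest. Means were 19.1 ± 1.65, 21.3 ± 1.38 and 16.3 ± 2.11 CPM (SD, n = 5 each) and 20.6 ± 5.20 CPM (SD, n = 3) in the same order.

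The log2 difference of Esam for the knockout label in trained muscle was 0.37 (SE 0.140, 95% interval 0.08 to 0.67, unadjusted p = 0.0161, edgeR adjusted p = 0.175). Without vehicle trained library 2, Esam passed the threshold and was higher in the knockout-labelled samples, with 0.47 (SE 0.120, edgeR adjusted p = 0.0193), and was the 1 of 9 members to do so, where 8.66% of all genes passed. Without the knockout-labelled sample of libraries 1 and 4 the difference was 0.26 (edgeR adjusted p = 0.416), and with only the 2 trained groups in the fit 0.37 (edgeR adjusted p = 0.693). When near-identical libraries were not merged, the difference of 0.44 passed (edgeR adjusted p = 0.0242), again as the 1 of 9, where 8.53% of all genes passed. For training in vehicle muscle it was -0.18 (SE 0.123, edgeR adjusted p = 0.456), and -0.26 without library 2 (SE 0.107, edgeR adjusted p = 0.360). None of the 9 members had values that did not overlap in that last comparison, where 2.98% of all genes did not overlap. Without library 2, Esam alone did not overlap, lower with training, where 4.91% of all genes did not.

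**Figure D3:**
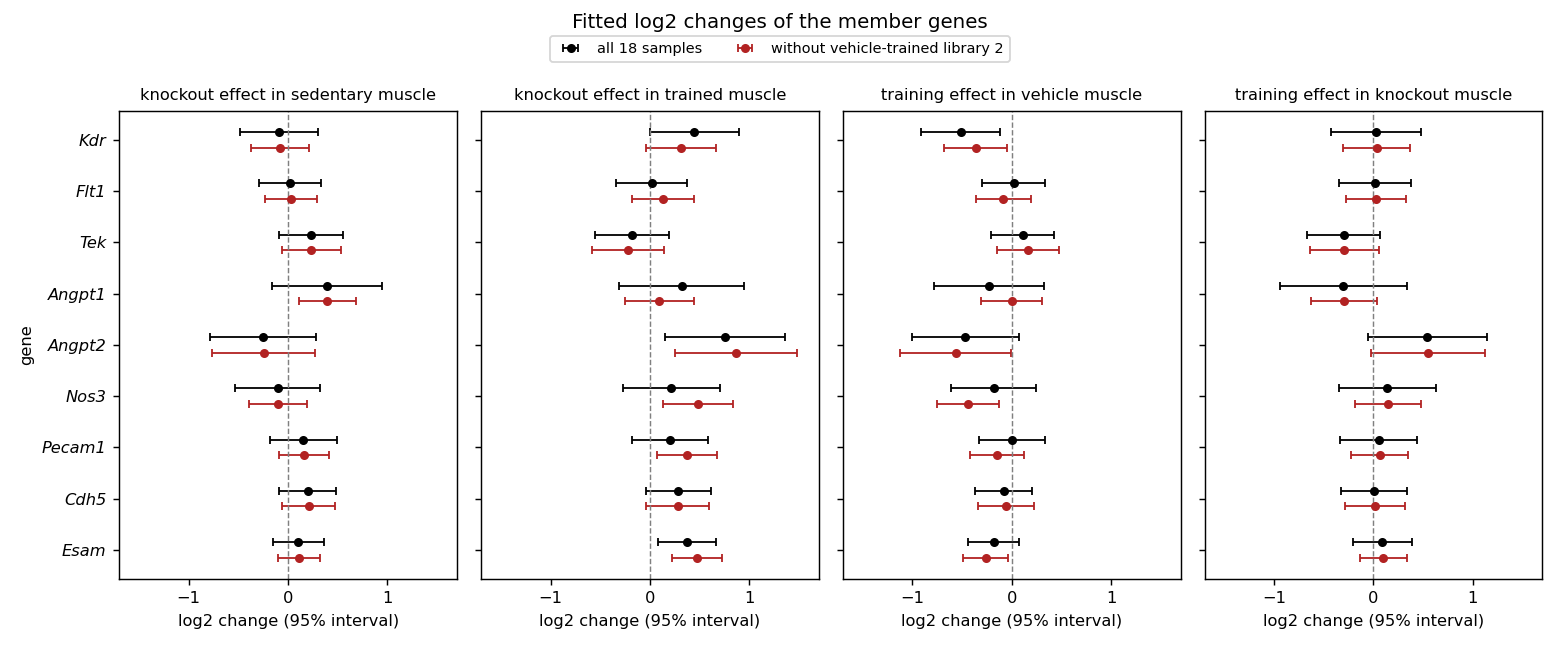
Fitted log2 changes of the 9 genes (horizontal axes, points with 95% intervals) for the knockout label in sedentary and trained muscle and for training in vehicle and knockout-labelled muscle. Black shows all 18 samples and red leaves out vehicle trained library 2; the interval of Angpt1 narrows and the Esam, Nos3 and Pecam1 differences in trained muscle move up without it.

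As a set, 6 of 9 members had a fitted difference above 0 for the knockout label in sedentary muscle, with a median log2 difference of 0.10 against 0.01 over all genes. In trained muscle 8 of 9 were above 0, Tek being the exception, with a median of 0.29 against -0.03. For training, 6 of 9 were below 0 in vehicle muscle, with a median of -0.18 against 0.03, and 7 of 9 were above 0 in knockout-labelled muscle, with a median of 0.02 against -0.02. These fits rescale the libraries, and the signs of the plain CPM means differed in part. By those means 6 of 9 were higher with the knockout label in sedentary and 7 of 9 in trained muscle, 8 of 9 were lower with training in vehicle muscle, and 7 of 9 were lower with training in knockout-labelled muscle, where Angpt2 and Nos3 were higher. No common direction of training in knockout-labelled muscle can thus be read from the set. Without vehicle trained library 2 the medians were 0.11, 0.31, -0.15 and 0.03, and the members called were 0, 1, 0 and 0. In those fits 6.98% of all genes passed for the knockout label in sedentary muscle, 0.0% for training in vehicle muscle, 0.843% for training in knockout-labelled muscle and 0.0% for the interaction. The trained comparisons of the knockout label and of training share the vehicle trained samples, so the higher and lower medians rest in part on the same libraries. In bulk muscle RNA, fewer endothelial cells and less RNA of these genes per cell cannot be told apart.

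The 7 receptor, enzyme and junction genes were positively correlated across samples. Spearman's rho was positive in 21 of 21 pairs over the 18 samples, with a median of 0.43 and a range from 0.10 (Tek and Nos3) to 0.81 (Flt1 and Pecam1). Without vehicle trained library 2 the median was 0.59, over 17 samples. Pecam1 and Esam gave 0.80, Cdh5 and Esam 0.75, and Kdr and Cdh5 0.695. Against those 7, Angpt1 had rho between -0.09 (with Nos3) and 0.39 (with Cdh5), and Angpt2 between -0.35 (with Tek) and 0.41 (with Kdr), ranges that overlap with the one among the 7. These correlations are descriptions over samples that share groups, tissue and library totals.

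The mean z-score of these 7 genes, in SD units of log2(CPM + 1), ordered the samples across group borders. It was highest in the knockout-labelled trained sample of libraries 1 and 4 at 1.24, followed by vehicle sedentary library 4 at 1.04 and knockout-labelled sedentary libraries 3 and 1 at 1.00 and 0.94. It was lowest in vehicle trained library 3 at -1.15, knockout-labelled trained library 2 at -1.08 and vehicle trained library 1 at -0.97. The 3 knockout-labelled trained samples thus held the highest and the second lowest score of the study, with libraries 3 and 5 at -0.13 between. All 5 vehicle trained libraries were below 0, and 4 of 5 knockout-labelled sedentary libraries were above 0, the other being at -0.01. Of the 9 members, 4 (Kdr, Pecam1, Cdh5 and Esam) had their highest value in the knockout-labelled trained sample of libraries 1 and 4.

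Endothelial markers that were not members were summed for comparison. The summed CPM of 20 such markers lay between 839 and 1314 in vehicle sedentary, between 1015 and 1334 in knockout-labelled sedentary, between 839 and 1078 in vehicle trained and between 912 and 1240 in knockout-labelled trained samples. Spearman's rho between this sum and the 7-gene score was 0.83 over the 18 samples. The sum is weighted to abundant markers. Aqp1 alone was 398 of 997 CPM in vehicle sedentary library 1 and 547 of 1334 CPM in knockout-labelled sedentary library 3. Its own rho with the score was 0.91, and the sum without it was not tested. In vehicle trained library 2 the markers moved apart. Cd34 and Cav1 stood there at 36.3 and 49.1 CPM, the lowest of that group. Cldn5 and Plvap stood at 16.6 and 21.4 CPM, the highest of that group. The orders of sum and score were not the same: the highest sums, 1334 and 1314 CPM, were those of knockout-labelled sedentary library 3 and vehicle sedentary library 4. Pericyte and smooth muscle markers, a list of 12 genes, summed to between 602 and 856 CPM in vehicle trained samples. They summed to between 779 and 986 CPM in knockout-labelled trained samples, so the ranges overlap. The 602 CPM was that of vehicle trained library 2. Rgs5 and Abcc9 weigh most in this sum, at 249 and 171 CPM in that library, and which cells held them was not measured. Macrophage markers, 8 genes, summed to between 163 and 417 CPM in vehicle trained and between 58.8 and 346 CPM in knockout-labelled trained samples, and to between 58.0 and 239 CPM in vehicle sedentary samples. Fibroblast markers, 6 genes, summed to between 1625 and 2902 CPM in vehicle trained and between 929.8 and 2004 CPM in knockout-labelled trained samples. Of the 49 tested markers on 8 further lists (lymphatic endothelium, muscle fibre, blood, macrophage, adipocyte, fibroblast, satellite cell and Schwann cell), 1 passed in a contrast. It was the myoglobin gene Mb, with a log2 difference of 0.96 (SE 0.252, edgeR adjusted p = 0.0439) for the knockout label in trained muscle, where 3.29% of all genes passed. Mb lost this call in 15 of 18 fits that left out 1 sample, and with only the trained groups in the fit (edgeR adjusted p = 0.488). It passed without vehicle trained library 2 (edgeR adjusted p = 0.00993). In that fit the fibroblast collagen gene Col3a1 also passed for the knockout label in sedentary muscle, with 0.92 (SE 0.233, edgeR adjusted p = 0.0188). Mb and Col3a1 were each the 1 of the 49 markers to pass in its contrast, where 8.66% and 6.98% of all genes passed. The part of these other cell types in the members' differences was not tested.

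**Figure D4:**
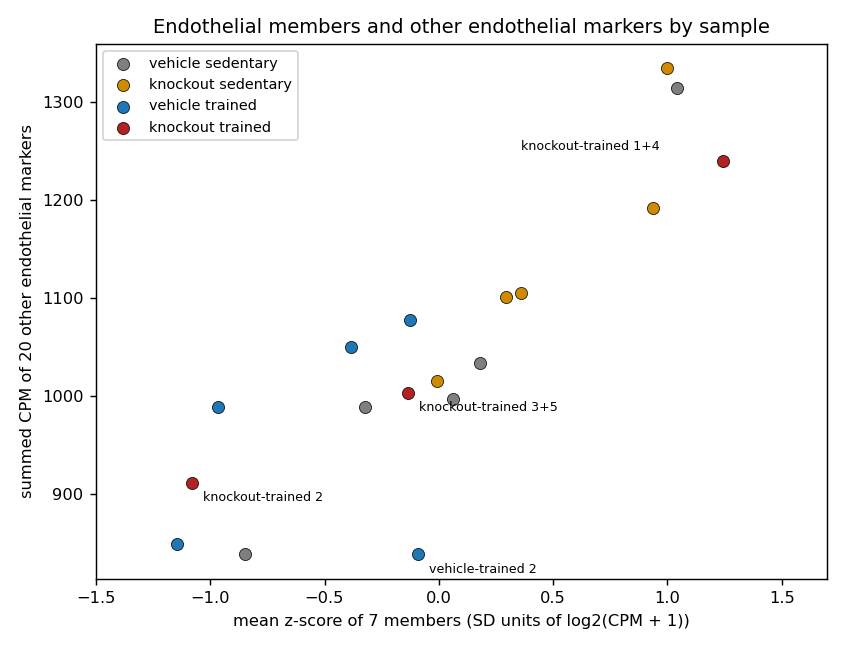
Summed CPM of 20 other endothelial markers (vertical axis, not starting at 0) against the mean z-score of Kdr, Flt1, Pecam1, Cdh5, Tek, Nos3 and Esam (horizontal axis) in the 18 samples, coloured by group. The knockout-labelled trained samples lie at scores of 1.24, -0.13 and -1.08, and vehicle trained library 2 has the lowest marker sum (839 CPM) at a score of -0.09.

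Among the 20 other endothelial markers, 2 rose with the knockout label in trained muscle and 0 fell, where 3.29% of all genes passed. The median log2 difference there was 0.13 against -0.03 over all genes, and 0 markers passed in the other 4 contrasts. When vehicle trained library 2 was left out, 3 of the 20 rose with the knockout label in trained muscle, where 8.66% of all genes passed. The median was then 0.22 against 0.00, with 18 of 20 above 0. The added gene was Plvap, of the diaphragms of capillary openings, with 0.55 (SE 0.152, edgeR adjusted p = 0.0314), against 0.21 with that library. Egfl7, a secreted endothelial factor, rose by 0.58 (SE 0.140, edgeR adjusted p = 0.0271), from 22.7, 17.2, 20.9, 24.0 and 23.7 CPM to 39.1, 28.8 and 27.3 CPM. Rasip1, a regulator of vessel lumen formation, rose by 0.64 (SE 0.154, edgeR adjusted p = 0.0277), from 7.02, 6.78, 7.90, 8.02 and 9.12 CPM to 14.2, 10.04 and 11.2 CPM. The groups did not overlap for either gene, where 7.95% of all genes did not overlap. Both calls were lost without the sample of libraries 1 and 4 (edgeR adjusted p = 0.109 and 0.100). They were also lost without that of libraries 3 and 5 (0.058 and 0.105) and with only the trained groups in the fit (0.282 and 0.315). Of the 12 mural markers 1 rose in the same contrast, where 3.29% of all genes passed. It was Notch3, the receptor of vascular smooth muscle, with 0.61 (SE 0.140, edgeR adjusted p = 0.0209). The adjusted p of Notch3 was 0.102 without libraries 1 and 4, 0.0772 without libraries 3 and 5, and 0.407 with only the trained groups in the fit.

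Of 11 tested Notch and tip-cell genes and 14 endothelial transcription factor genes, 0 passed in any contrast. The forkhead factor gene Foxo1 fell with the knockout label without vehicle trained library 2, by 0.45 on the log2 scale in sedentary (edgeR adjusted p = 0.00132) and by 0.40 in trained muscle (edgeR adjusted p = 0.0174). It was the 1 of 14 transcription factor genes to pass in each, where 6.98% and 8.66% of all genes passed. Vehicle trained library 2 held 376 CPM of Foxo1, against 42.4 to 49.8 CPM in the rest of its group. Which cells held the transcript was not measured. The smallest p values among the Notch and tip-cell genes were those of Aplnr, the apelin receptor gene, with a log2 difference of 0.89 (SE 0.354, edgeR adjusted p = 0.201), and Dll4, the tip-cell ligand gene, with 0.53 (SE 0.231, edgeR adjusted p = 0.238), both for the knockout label in trained muscle. The median of the Notch and tip-cell list was 0.28 in that contrast and -0.23 for training in vehicle muscle. Among 16 other tested angiogenic and angiostatic factors, 1 fell with the knockout label in trained muscle, where 3.29% of all genes passed. This was Adamts1, a protease with angiostatic activity, which fell by 1.01 on the log2 scale (SE 0.192, edgeR adjusted p = 0.00564). Its values were 48.5, 90.0, 55.7, 65.0 and 57.4 CPM in vehicle trained and 37.9, 27.3 and 27.4 CPM in knockout-labelled trained samples. They did not overlap, where 7.95% of all genes did not overlap. Adamts1 passed the threshold when any single sample was left out, at an edgeR adjusted p of at most 0.0487, and did not with only the trained groups in the fit (0.229). The median of those 16 factors was -0.38 in that contrast, opposite in sign to the members' 0.29. In the same contrast the median was -0.43 over the 6 fibroblast markers, with 1 of 6 above 0, and -0.76 over the 8 macrophage markers, with 0 of 8 above 0. Their part in the list's difference was not tested. Leaving out vehicle trained library 2, the growth factor gene Fgf2 also fell in that contrast, by 0.70 (edgeR adjusted p = 0.0129). With Adamts1 that made 2 of the 16 factors, where 8.66% of all genes passed. In the same fit Ppargc1a, a coactivator gene of mitochondrial biogenesis, fell with the knockout label in sedentary muscle, by 0.54 (edgeR adjusted p = 0.0147). Ppargc1a was the 1 of 16 to pass there, where 6.98% of all genes passed. Vehicle trained library 2 held 556 CPM of Ppargc1a, against 51.9 to 75.1 CPM in the rest of its group.

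The genes whose pattern over the 18 samples was most like the 7-gene score were Aqp1, a capillary water channel gene (Spearman's rho 0.91), Adgrg1 (0.90), Ptprb, the vascular endothelial phosphatase that acts on Tie2 (0.90), Robo4, an endothelial guidance receptor gene (0.89), Ttc7 (0.86), Iws1 (0.85), Tie1 (0.85) and Itga6, a laminin receptor subunit gene (0.84). Without vehicle trained library 2, Aqp1, Tie1, Itga6, Adgrg1, Ptprb and Ttc7 were again among the 8 most alike. For Angpt1 they were Smc3 (0.83), Prdm16 (0.81) and Klhdc1 (0.80), and for Angpt2 Pmf1 (0.74), Scamp3 (0.70) and the predicted gene Gm8184 (0.69). Without vehicle trained library 2, Irgm1 took the place of Klhdc1 for Angpt1, and Aarsd1 that of Gm8184 for Angpt2. All these genes are the highest among the 14359 tested. How high the top rho would be without any relation was not tested. No endothelial marker on the list was among the 3 nearest genes of either angiopoietin, but 3 genes are too few to read this as a trait of theirs.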

How the data were processed

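The authors' deposited table holds estimated counts for each gene, although it carries the name of another unit: its columns sum to different totals and 72.0% of the values are exactly whole. The submitters' processing notes name Partek, STAR 2.7.8a and DESeq2, and the builds mm10 and GRCm39, without saying which build was used for which step. Strandedness is not given in the sources used here. Of the rows, 14 have no gene symbol. Counts were rounded and CPM computed from the column totals. Of 190 pairs of libraries, 2 showed noise at 1000 to 10000 counts under 1.5 times their own noise at 10 to 100 counts (ratios of 1.28 and 0.857). Each such pair was summed for tests and averaged for means, which left 18 samples. Genes at or above 1 CPM in 5 or more of 20 libraries, 14359 in all, were tested with edgeR 4.0.16 (quasi-likelihood test, TMM scaling, 4 group means, two-sided, Benjamini-Hochberg adjustment over all tested genes within a contrast, threshold 0.05). The test was checked on simulated counts only for the knockout label in sedentary muscle, with no library that stood apart. That check therefore does not cover the trained comparisons. Exon lengths were those of the merged exons of each gene in GENCODE M21, and promoter sequences came from RefSeq.

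The members and the gene lists were chosen with earlier results of these data known. Named are all 9 members, the called genes of each list (also, chosen after seeing the data, those called without vehicle trained library 2) or at most 2 with the smallest p where none was called, and the genes most alike in pattern. Alternatives were RLE scaling, DESeq2 1.42.0, no filter, limma 3.58.1 on log2(CPM + 1), 20 separate libraries with and without the replicate number as a block, only the 2 groups compared, and leaving out each sample.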

Additional observations from a re-analysis of the deposited data

Results flagged for a closer look

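In groups of 5 samples, a value was singled out when its gap to the nearest other sample was over 0.71 of the group's range (Dixon's criterion, which chance alone meets in about 1 in 20 groups). The 9 members gave 0 such values in 27 groups, and 18 other quantities gave 7 in 54 groups, where about 4.05 would be met by chance over all 81. Vehicle trained library 2 held 4 of them. Its Arntl was 132 CPM, against 6.32 to 6.68 CPM in the other 4 libraries, and its Vegfd was 51.9 CPM, against 6.15 to 10.02 CPM. The ratio of Flt1 to Kdr was 6.05 there, against 2.08 to 2.43, and that of Angpt2 to Angpt1 was 0.516, against 0.0766 to 0.130. The Flt1 to Kdr ratio was also far from its group in knockout-labelled sedentary library 3, at 3.03 against 1.67 to 2.04, where Flt1 was the highest of the study. Knockout-labelled sedentary library 1 had 18.9 CPM of Arntl, against 10.96 to 13.1 CPM, and vehicle sedentary library 4 had 7.57 CPM of Aplnr, against 4.65 to 5.44 CPM.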

How the results depend on the processing

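In all, 45 member differences were recomputed under 25 alternatives, 18 of which left out 1 sample. Of 1116 values, 1052 kept direction and side of the threshold, 4 newly passed it and 60 turned sign, for 16 differences of at most 0.23 log2. The count of members called was 0 in each contrast and became 1 in these cases: with only the sedentary groups in the fit (Angpt1, 0.39, edgeR adjusted p = 0.0249, with 8.2% of all genes called), and in trained muscle with 20 separate libraries (Esam, 0.44, edgeR adjusted p = 0.0242, with 8.53%), with the replicate number as a block (1 member, Kdr, 0.55, edgeR adjusted p = 0.0423, with 6.82%) and when vehicle trained library 2 was left out (Esam, with 8.66%, range 0 to 1 over samples left out). The main fit did not pair samples by replicate number. Same-numbered libraries of 2 groups correlated between -0.394 and 0.347 in their deviations from group means. The same number was the best match for 3 of 5 libraries between the knockout-labelled groups and 0 to 2 of 5 in other group pairs.

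On log2(CPM + 1) with limma, which moved the median of all genes for training in knockout-labelled muscle by -0.12, signs turned for training in that muscle in Kdr (-0.16), Flt1 (-0.12), Pecam1 (-0.083), Cdh5 (-0.15), Nos3 (-0.016) and Esam (-0.072), for training in vehicle muscle in Flt1 (-0.033) and Pecam1 (-0.061), for the knockout label in trained muscle in Flt1 (-0.0105) and for the interaction in Pecam1 (-0.021) and Cdh5 (-0.024). Without the filter they turned for Pecam1 with training in vehicle muscle (-0.013) and for the Flt1 interaction (0.017), which was 0.031 with 20 separate libraries and 0.029 with the replicate block. The cause was not tested.

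Leaving out single samples turned signs of Flt1 (knockout label, sedentary, -0.087 to 0.099; knockout label, trained, -0.065 to 0.13; training, vehicle, -0.083 to 0.098; training, knockout-labelled, -0.067 to 0.13; interaction, -0.091 to 0.11), Pecam1 (training, vehicle, -0.15 to 0.087; training, knockout-labelled, -0.0404 to 0.14; interaction, -0.047 to 0.21) and Cdh5 (training, vehicle, -0.15 to 0.011; training, knockout-labelled, -0.14 to 0.15; interaction, -0.064 to 0.23). It also turned Angpt1 (training, vehicle, -0.47 to 0.0023; interaction, -0.30 to 0.17) and, for training in knockout-labelled muscle, Kdr (-0.16 to 0.26), Nos3 (-0.012 to 0.27) and Esam (-0.029 to 0.25).

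For the 7 listed genes called in trained muscle, the same alternatives were run after seeing the data. Of 175 values 0 turned sign and 45 lost the call: all 7 genes lost it with only the trained groups in the fit, and 6 lost it when at least 1 sample was left out. The knockout-labelled trained group of 3 samples limits the comparisons that use it. Depth limits Angpt2, which had between 18 and 71 counts in a library.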
